A study of Cucumis melo with 12 samples.

Results

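Leaves of the melon (Cucumis melo) variety 162 were profiled by mRNA sequencing after 12 h and at 0 h of exposure to 4 °C, with 3 libraries at each time. The labels call 162 chilling-tolerant and name the same 4 °C treatment for both times, and they give no temperature for the leaves before 0 h. Levels are given in FPKM, which are sequenced fragments scaled by gene length and by library total. A gene was included when its level, averaged over these 6 libraries, reached 1 FPKM, which kept 15576 of the 21691 genes in the deposited table. The variety 13-5A, labelled chilling-sensitive and likewise sampled in leaves after 12 h and at 0 h of 4 °C with 3 libraries each, is used only where the change in 162 is set against another variety. Libraries of one group are numbered as replicates 1 to 3, and the labels do not say whether they came from separate plants, so p-values reflect the spread between these libraries, which may be technical. No leaves were held unchilled for 12 h, so cold and elapsed time, with its change in time of day, cannot be told apart.

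Of the 6115 genes below the minimum, 854 had a value of 0 in all 6 libraries of 162. A further 436 of the 6115 reached a mean of 1 FPKM at a single time, 149 of them at 12 h and 287 at 0 h. The lowest mean that entered was 1.00005 FPKM and the highest that did not was 0.998531 FPKM. The median gene that entered had a mean of 12.7 FPKM.

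Melon is a warm-season cucurbit, and its leaves can be injured by cold well above freezing. In plants studied in detail, such as Arabidopsis, falling temperature is followed by a burst of transcription factors of the CBF (DREB1) family, which switch on cold-regulated genes for protective proteins and compatible sugars. Many photosynthesis and growth genes are known to be turned down in the cold, and the circadian clock moves a large part of the leaf transcriptome over a day whether or not it is cold. The deposited table pairs no identifier with a name, and 0 of its identifiers matched the RefSeq name table for melon, so neither these gene families nor leaf marker genes could be looked up and the leaf label could not be checked against markers. Genes are therefore described by identifier, level, length and behaviour.

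The 6 libraries separated by time along the main axis of variation. Whole reads recovered from the FPKM gave totals of 41299369 to 44710255 per library of 162. Over the 15576 genes, the first principal component of log2(FPKM + 1) held 74.6% of the variance among the 6 libraries. The 12 h libraries lay at 47.6, 56.0 and 64.5 on it, and the 0 h libraries at -68.3, -42.6 and -57.2. Within a time, libraries correlated at 0.960 to 0.985 at 12 h and at 0.949 to 0.971 at 0 h, whereas pairs from different times correlated at 0.808 to 0.892. Replicate 3 at 12 h lay farthest out among the 12 h libraries, and replicate 2 at 0 h lay nearest to the 12 h libraries. The second component, with 11.3% of the variance, set these libraries apart from the others, at -26.0 and -30.4 against -4.88 to 25.3.

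**Figure D1:**
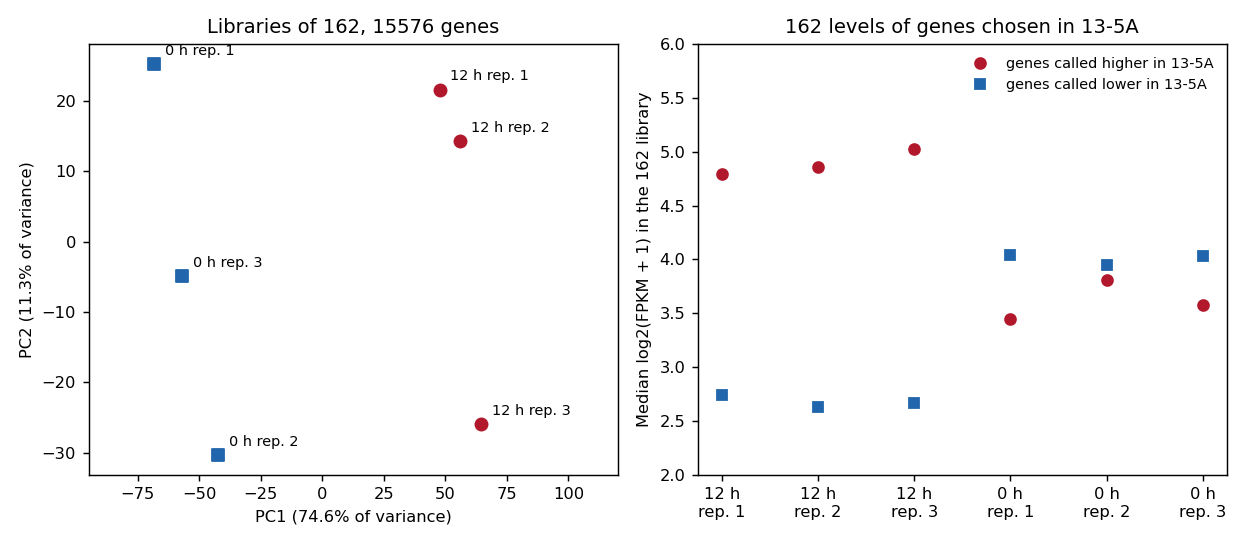
Left, the first 2 principal components of log2(FPKM + 1) over 15576 genes for the 6 libraries of 162, with 12 h as circles and 0 h as squares; the times separate on the first component, and replicate 3 at 12 h and replicate 2 at 0 h lie low on the second. Right, the median log2(FPKM + 1) in each 162 library of genes chosen in the libraries of 13-5A; genes called higher there lie at 4.79 to 5.02 in the 12 h libraries and 3.45 to 3.80 in the 0 h libraries.

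After 12 h, 1455 genes were higher and 1665 lower than at 0 h in 162. A call required an adjusted p (Benjamini-Hochberg) below 0.05 from limma, and a log2 difference, 12 h minus 0 h on the log2(FPKM + 1) scale, of 1 or more in size, which is 2-fold. The calls were 20.0% of the 15576 genes tested, 9.34% higher and 10.7% lower. The median gene called higher stood at 30.1 FPKM at 12 h and 8.20 FPKM at 0 h. The median gene called lower stood at 4.73 FPKM at 12 h and 15.3 FPKM at 0 h. In 1429 of the genes called higher, every 12 h library lay above every 0 h library, against 22.1% of all genes tested. In 1638 of the genes called lower, every 12 h library lay below every 0 h library, against 31.7% of all genes tested. The calls came from these same libraries, so both counts follow largely from the selection and are not separate support. Bulk leaf RNA cannot tell fewer cells of a type from less RNA per cell. The median gene moved by -0.13, and under median-ratio scaling, which moves it to -0.05, 1611 genes were higher and 1363 lower, so which direction held more calls depends on the scaling.

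Large changes were mostly rises. Folds here are on the FPKM + 1 scale. Of the genes called higher, 1055 rose 2- to 4-fold, 283 rose 4- to 8-fold, 87 rose 8- to 16-fold and 30 rose more than 16-fold. Of the genes called lower, 1466 fell 2- to 4-fold, 172 fell 4- to 8-fold, 20 fell 8- to 16-fold and 7 fell more than 16-fold. Changes of less than 4-fold thus made up 72.5% of the rises and 88.0% of the falls. The steepest rises started low: the 30 genes above 16-fold had a median of 143 FPKM at 12 h and 3.33 FPKM at 0 h. The 283 genes that rose 4- to 8-fold had medians of 37.9 FPKM at 12 h and 5.82 FPKM at 0 h. The 7 steepest falls ended low, with medians of 2.17 FPKM at 12 h and 59.2 FPKM at 0 h.

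**Figure D2:**
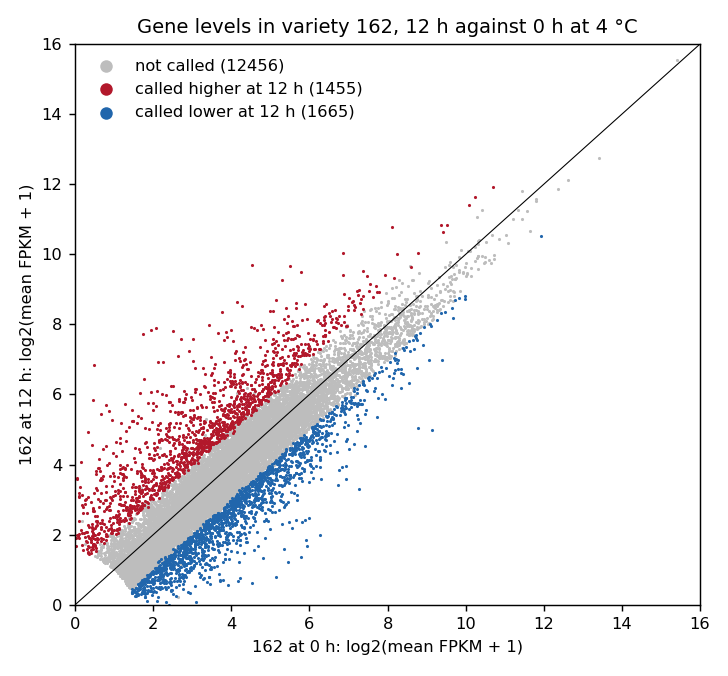
Mean level at 12 h (vertical) against mean level at 0 h (horizontal) for 15576 genes in 162, each as log2(mean FPKM + 1), with the line of equal levels. The 1455 genes called higher at 12 h lie above the line and the 1665 called lower lie below it.

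The rises and falls were spread differently over the pool of transcripts. Genes whose mean rose gained 130027 FPKM in sum, and the genes called higher held 61.2% of that gain. Genes whose mean fell lost FPKM that sum to -151613, and the genes called lower held 30.5% of that loss. Most of the lost FPKM thus came from genes that were not called. With totals made equal in every library, the shares were 59.0% of the gain and 32.0% of the loss. They were not computed under median-ratio scaling. The 10 genes with the largest gains held 13.0% of the gain, and the 10 with the largest losses held 10.1% of the loss.

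How far a few genes dominated the pool was not shown to change. The 10 most abundant genes of each library held 13.6%, 14.1% and 11.1% of FPKM at 12 h, against 13.9%, 12.7% and 12.7% at 0 h. The groups overlapped (12.9% ± 1.63 and 13.1% ± 0.672, SD, n = 3 each; two-sided exact permutation test p = 0.9, smallest possible 0.1). The 100 most abundant held 26.8% ± 1.60 at 12 h and 27.7% ± 1.72 at 0 h (SD, n = 3 each; exact permutation p = 0.6). The number of genes that together held 50% of FPKM was 607, 620 and 730 at 12 h, against 452, 678 and 594 at 0 h, which also overlapped (exact permutation p = 0.4).

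Fewer genes were detected at 12 h, while more reached a high level. Genes at 1 FPKM or above, counted over the whole table, numbered 15102, 14989 and 15174 in the 12 h libraries, against 15457, 15546 and 15530 in the 0 h libraries. Every 12 h library thus had fewer such genes than every 0 h library, with a difference in means of -423 (exact permutation p = 0.1, the smallest that 3 against 3 libraries allow). Genes at 100 FPKM or above numbered 1151, 1116 and 1181 at 12 h, against 1091, 1093 and 1073 at 0 h (exact permutation p = 0.1). Every 12 h library had more genes of this high level than any 0 h library.

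Turnover at the top of the ranking was limited. Of the 100 genes with the highest mean FPKM at each time, 74 were in both lists. Of the 26 found only in the 12 h list, 16 were called higher, and of the 26 found only in the 0 h list, 9 were called lower. Over all 1128 genes with a mean of 100 FPKM or more, 14.6% were called higher and 7.80% lower, but being in one list alone already selects genes whose mean differed in that direction, so nothing is read from these counts. Among all genes called higher, 260 had a mean of 100 FPKM or more at 12 h, and 15 of these had a mean below 10 FPKM at 0 h.

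Among genes that were called and did not overlap between times, the largest rises in mean FPKM were those of MELO3C009108.2 and MELO3C026550.2. MELO3C009108.2 had 3328, 3860 and 4326 FPKM at 12 h, against 1794, 1679 and 1487 FPKM at 0 h. Its groups did not overlap, and it ranked 4 among all genes by mean level at 12 h and 20 at 0 h. The log2 difference was 1.21 (SE 0.38, adjusted p from limma = 0.0204). The call was narrow: the adjusted p was 0.0623 without replicate 3 at 0 h, 0.0508 and 0.0557 without replicates 2 and 3 at 12 h, and 0.0517 without the filter on low genes. MELO3C026550.2 had 2656, 2536 and 4270 FPKM at 12 h, against 941, 1935 and 763 FPKM at 0 h. Replicate 3 was its highest library at 12 h and replicate 2 its highest at 0 h, and the groups still did not overlap. Its log2 difference was 1.46 (SE 0.32, adjusted p from limma = 0.00251).

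Under the same limits, the largest falls were those of MELO3C019440.2 and MELO3C003725.2, although several abundant genes that fell by less than 2-fold, and so were not called, lost more FPKM than MELO3C003725.2. MELO3C019440.2 had 1787, 1553 and 1050 FPKM at 12 h, against 5781, 2664 and 3259 FPKM at 0 h. It ranked 25 at 12 h and 6 at 0 h, and replicate 1 at 0 h stood well above the other 0 h libraries. Its log2 difference was -1.37 (SE 0.29, adjusted p from limma = 0.00227). MELO3C003725.2 had 504, 456 and 304 FPKM at 12 h, against 1290, 748 and 1014 FPKM at 0 h, with no overlap. Its log2 difference was -1.27 (SE 0.26, adjusted p from limma = 0.00182). In 13-5A these 4 genes were called in the same direction. MELO3C009108.2 averaged 3125 ± 1307 FPKM at 12 h and 1290 ± 679 FPKM at 0 h in 13-5A, where its times overlapped, and MELO3C019440.2 averaged 1813 ± 293 and 4420 ± 247 FPKM at these times (SD, n = 3 each).

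The direction of the calls varied with the level of a gene. Among the 3847 genes with a mean of 1 to 5 FPKM, 6.45% were called higher and 12.7% lower. Between 5 and 20 FPKM, 493 of 6101 genes (8.08%) were higher and 674 lower. Between 20 and 100 FPKM, 12.2% of 4500 genes were higher and 9.20% lower. At 100 FPKM or more, 14.6% of 1128 genes were higher and 7.80% lower. The shares of calls do not describe the median gene. Its log2 difference was -0.27, -0.11, -0.006 and -0.21 in these classes, from low to high level. In the most abundant class the median gene thus fell, although more genes were called higher than lower. The increase of the higher share from class to class held under 17 of 17 alternatives. Several of these left the log2 differences unchanged and altered only the spread used in the test. They were leaving out a library of the other variety, dropping the intensity trend and the replicate block. The tally therefore overstates stability. The decrease of the lower share held under 15 of 17: without replicate 2 at 0 h, 14.5% of the most abundant class were lower, and without replicate 1 at 12 h, 12.4%. A pseudocount of 0.1 in place of 1 raised the lower share of the 1 to 5 FPKM class to 22.1%.

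Gene length, recovered from the FPKM steps, showed a weaker pattern. Among the 3893 shortest genes, below 1122 bases, 9.12% were called higher and 14.1% lower. Among the 3895 longest, from 2302 bases, 7.63% were higher and 8.24% lower. Between 1122 and 1649 bases 9.97% were higher and 10.6% lower, and between 1649 and 2302 bases 10.6% were higher and 9.83% lower. The shortest class held the highest share of lower genes under 17 of 17 alternatives, with 11.8% under median-ratio scaling. This tally includes the same alternatives that left the log2 differences unchanged, so it too overstates stability. Across genes, which are not independent replicates and share the library totals, the log2 difference correlated with length at a Spearman's rho of 0.088 and with mean level at 0.113 (n = 15576).

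**Figure D3:**
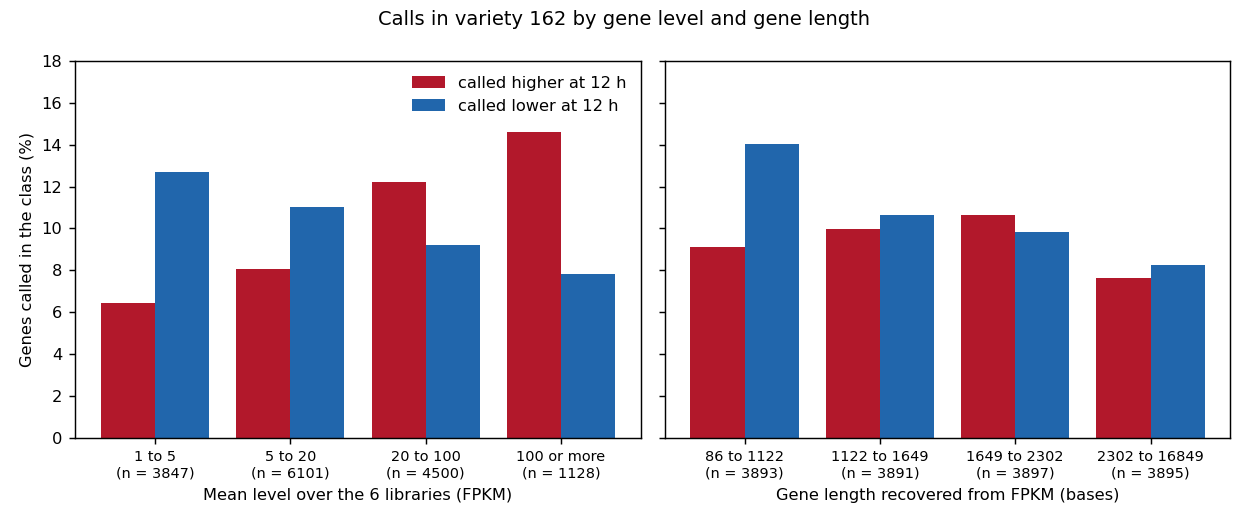
Share of genes called higher and called lower at 12 h in 162 (vertical, percent of the class), by mean FPKM over the 6 libraries (left) and by recovered gene length in bases (right). The higher share grows from 6.45% to 14.6% with level, and the lower share is largest, 14.1%, in the shortest genes.

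Switching between almost no reads and clear expression was rare. Over the whole table, 5 genes had under 0.1 FPKM in every 0 h library and at least 1 FPKM in every 12 h library. They are named because they are few, after their values were seen: MELO3C030868.2, MELO3C006977.2, MELO3C007813.2, MELO3C028965.2 and MELO3C030926.2. MELO3C030868.2 stood out with 13.1, 13.8 and 7.28 FPKM at 12 h, against 0.0899, 0.0174 and 0 FPKM at 0 h, that is 753, 735 and 409 reads against 5, 1 and 0. Its log2 difference was 3.53 (SE 0.44, adjusted p from limma = 5.3e-05). The other 4 stayed at or below 3.61 FPKM in every library of 162. MELO3C006977.2 and MELO3C007813.2 were also called, and MELO3C028965.2 and MELO3C030926.2 had means below the 1 FPKM minimum and were not tested.

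The reverse held for 4 genes, MELO3C007624.2, MELO3C017862.2, MELO3C021540.2 and MELO3C025324.2, likewise named for their small number. They had at most 2.36 FPKM in any 0 h library, and their means were below the minimum, so none of the 4 was tested. MELO3C021540.2 had 0 reads in each 12 h library, against 56, 64 and 53 reads at 0 h. A count of 0 allows up to 3 reads per library, which covers counting error only, and all its 0 h libraries lay above that floor. These counts depend on the limits: 19 genes switched on and 10 switched off when under 0.2 FPKM was taken as off. Leaving out 1 library gave 8 to 13 switched on and 5 to 7 switched off. Since every library must pass its limit, leaving one out can only keep or raise a count.

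The spread between replicates of 162 was similar at both times, and this was not tested. The median within-group SD of log2(FPKM + 1) was 0.211 at 12 h and 0.242 at 0 h, and it was larger at 12 h in 43.6% of genes. Among genes of 100 FPKM or more the medians were 0.280 at 12 h and 0.337 at 0 h. Among called genes, single libraries often stood at the extremes of their time. Replicate 3 was the highest of the 12 h libraries in 823 of the 1455 genes called higher (56.6%), and replicate 2 was the highest of the 0 h libraries in 850 of them (58.4%). Replicate 2 was also the lowest of the 0 h libraries in 893 of the 1665 genes called lower (53.6%). Replicate 1 was the lowest of the 0 h libraries in 789 of the genes called higher (54.2%). It was the highest of them in 812 of the genes called lower (48.8%). Such shares over all genes tested are not given here. Without replicate 2 at 0 h, 1675 genes were called higher and 1868 lower, and without replicate 3 at 12 h, 1351 were higher and 1643 lower. Without replicate 1 at 0 h, 1289 were higher and 1588 lower. The part of these libraries in single results was not tested beyond leaving them out.

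Genes chosen in the other variety moved the same way in 162. In 13-5A, 1945 of the 15576 genes were called higher at 12 h (12.5%) and 1369 lower (8.79%). The libraries of 162 had no part in the mean differences that chose them, although the residual spread came from all 12 libraries. In the 162 libraries, the 1945 genes had median log2(FPKM + 1) levels of 4.79, 4.86 and 5.02 at 12 h, against 3.45, 3.80 and 3.58 at 0 h. The 1369 genes had medians of 2.74, 2.63 and 2.67 at 12 h, against 4.04, 3.95 and 4.04 at 0 h. In both sets every 12 h library lay apart from every 0 h library. The median log2 difference of the first set was 1.15 in 162, and that of the second set was -1.20, against -0.13 over all genes tested. In the first set 1854 of 1945 genes (95.3%) and in the second 1353 of 1369 (98.8%) had the same sign as in 13-5A. Over all genes tested, 6659 of 15576 (42.8%) had a positive difference in 162 and the rest a negative one.

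The larger the rise in 162, the more often 13-5A was called alike. The fixed 2-fold limit favours this, since larger changes pass it more easily. Of the genes that rose 2- to 4-fold in 162, 737 of 1055 were called higher in 13-5A (69.9%). The share was 92.2% of those that rose 4- to 8-fold, 95.4% of those that rose 8- to 16-fold and 30 of 30 above that. Of the genes that fell 2- to 4-fold in 162, 745 of 1466 were called lower in 13-5A (50.8%). It was 82.0% of those that fell 4- to 8-fold, 17 of 20 of the next band and 7 of 7 above it. These shares stand against 12.5% of all genes tested called higher and 8.79% called lower in 13-5A. In sum, 1111 of 1455 rises (76.4%) and 910 of 1665 falls (54.7%) were called alike in 13-5A, and as a share of the 13-5A lists they made up 57.1% and 66.5%. A gene called in 162 alone is not shown to differ between varieties, and the difference itself was tested next.

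The change in 162 differed from that in 13-5A in 490 genes, 3.15% of those tested. The contrast, the change in 162 minus the change in 13-5A, was positive in 144 of them (0.924%) and negative in 346 (2.22%). For 60 of the 1455 rises in 162 (4.12%) the rise was larger than the change in 13-5A, and for 18 (1.24%) it was smaller. For 129 of the 1665 falls in 162 (7.75%) the fall was larger than the change in 13-5A, and for 27 (1.62%) it was smaller. The remaining 256 genes were not called in 162, with a median log2 difference of -0.15 in 162 and 0.89 in 13-5A. Under median-ratio scaling the median of the contrast over all genes moved from -0.16 to 0.01, and 237 genes were positive and 166 negative, so the majority turned. The count rests on single libraries. Instead of 490 it was 294 without replicate 1 and 223 without replicate 2 of the 12 h leaves of 162. Leaving out replicate 1 or 3 of the 0 h leaves of 13-5A gave 121 or 262, and leaving out its 12 h replicate 1 or 2 gave 182 or 292.

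The 60 rises that were larger in 162 had a median log2 difference of 2.35 in 162 and 0.57 in 13-5A. In 24 of them the change in 13-5A was under 0.5 in size, in 32 it went the same way by more than that, and in 4 it went the other way. The median gene of the 60 stood at 23.7 FPKM at 12 h and 3.60 FPKM at 0 h in 162, and at 12.3 FPKM at 12 h and 6.51 FPKM at 0 h in 13-5A. The 129 falls that were larger in 162 had medians of -1.50 in 162 and -0.02 in 13-5A. In 89 of them the change in 13-5A was under 0.5 in size, in 23 it went the same way by more, and in 17 the other way. Genes were filtered on their level in 162 alone, so genes near 0 FPKM in 13-5A could enter. On the log2(FPKM + 1) scale such genes show little change whatever they do. How many of the 24 and of the 89 were near 0 FPKM in 13-5A is not given here. Their median gene stood at 4.73 FPKM at 12 h and 19.8 FPKM at 0 h in 162, and at 5.90 FPKM at 12 h and 8.25 FPKM at 0 h in 13-5A. The median levels of the varieties lay farther apart at 0 h than at 12 h in these 129 genes. Choosing genes for a larger fall in 162 favours this, so nothing is read from it.

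**Figure D4:**
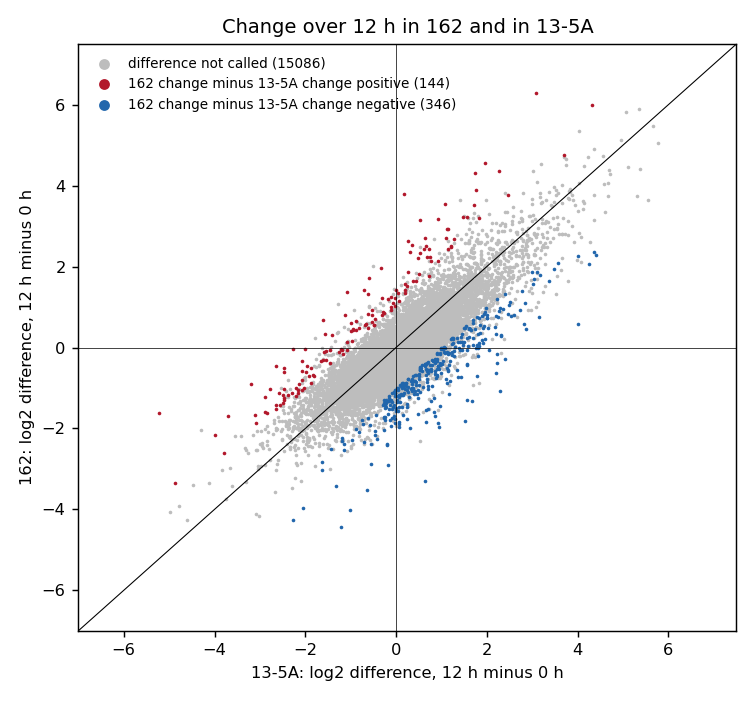
Log2 difference, 12 h minus 0 h, in 162 (vertical) against that in 13-5A (horizontal) for 15576 genes, with the line of equal change. The 144 genes with a positive difference between the changes lie above the line and the 346 with a negative one below it. Of the 346, 129 were called lower in 162, and 89 of these changed by under 0.5 in size in 13-5A. Genes near 0 FPKM in 13-5A can be among these 89. The 256 genes of either sign that were not called in 162 had medians of -0.15 in 162 and 0.89 in 13-5A.

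Among called rises in 162 with a called contrast and a mean of at least 5 FPKM, the contrast was largest for MELO3C002739.2 and MELO3C002315.2. MELO3C002739.2 had 26.2, 21.3 and 14.5 FPKM at 12 h, against 0.165, 1.56 and 0.161 FPKM at 0 h. Every 12 h library lay far above the 0 h libraries, of which replicate 2 was the highest, with 49 reads against 5 in each of the others. In 13-5A it had 0, 6 and 7 reads at 12 h and 0, 0 and 1 at 0 h. The change in 162 was 3.80 (SE 0.29, adjusted p from limma = 2.07e-06) and the contrast 3.63 (SE 0.41, adjusted p = 0.00165). With so few reads in 13-5A the contrast depends on the scale, and limma voom on the recovered reads gave 3.71 (SE 1.94, adjusted p = 0.294).

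MELO3C002315.2 had the largest rise on the log2 scale in 162. It had 75.02, 98.76 and 170 FPKM at 12 h, against 0.370, 0.222 and 0.587 FPKM at 0 h. In 13-5A it had 20.1, 31.6 and 28.2 FPKM at 12 h, against 2.93, 1.33 and 2.54 FPKM at 0 h. The varieties did not overlap at either time, with 162 higher at 12 h and lower at 0 h. The change was 6.30 in 162 (SE 0.29, adjusted p from limma = 8.91e-08) and 3.09 in 13-5A, with a contrast of 3.21 (SE 0.40, adjusted p = 0.00368).

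Among called falls under the same limits, the contrast was largest in size for MELO3C012505.2 and MELO3C017480.2. MELO3C012505.2, a gene of 237 bases, had 9.25, 16.4 and 7.37 FPKM at 12 h, against 183, 70.7 and 107 FPKM at 0 h. In 13-5A it had 1, 26 and 0 reads at 12 h and 0 in each 0 h library. The change in 162 was -3.30 (SE 0.45, adjusted p from limma = 0.00011) and the contrast -3.94 (SE 0.64, adjusted p = 0.0106). Since 13-5A had almost no reads, the contrast rests on the fall in 162, and limma voom gave -5.89 (SE 2.27, adjusted p = 0.162). Whether reads of 13-5A failed to map to this gene was not tested.

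MELO3C017480.2 went opposite ways in the varieties. In 162 it had 77.9, 63.8 and 35.7 FPKM at 12 h, against 156, 346 and 147 FPKM at 0 h. In 13-5A it had 339, 231 and 231 FPKM at 12 h, against 87.9, 108 and 79.2 FPKM at 0 h. The groups did not overlap in either variety. The change was -1.81 in 162 (SE 0.34, adjusted p from limma = 0.00105) and 1.52 in 13-5A (adjusted p = 0.00300), and the contrast was -3.33 (SE 0.48, adjusted p = 0.00724).

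**Figure D5:**
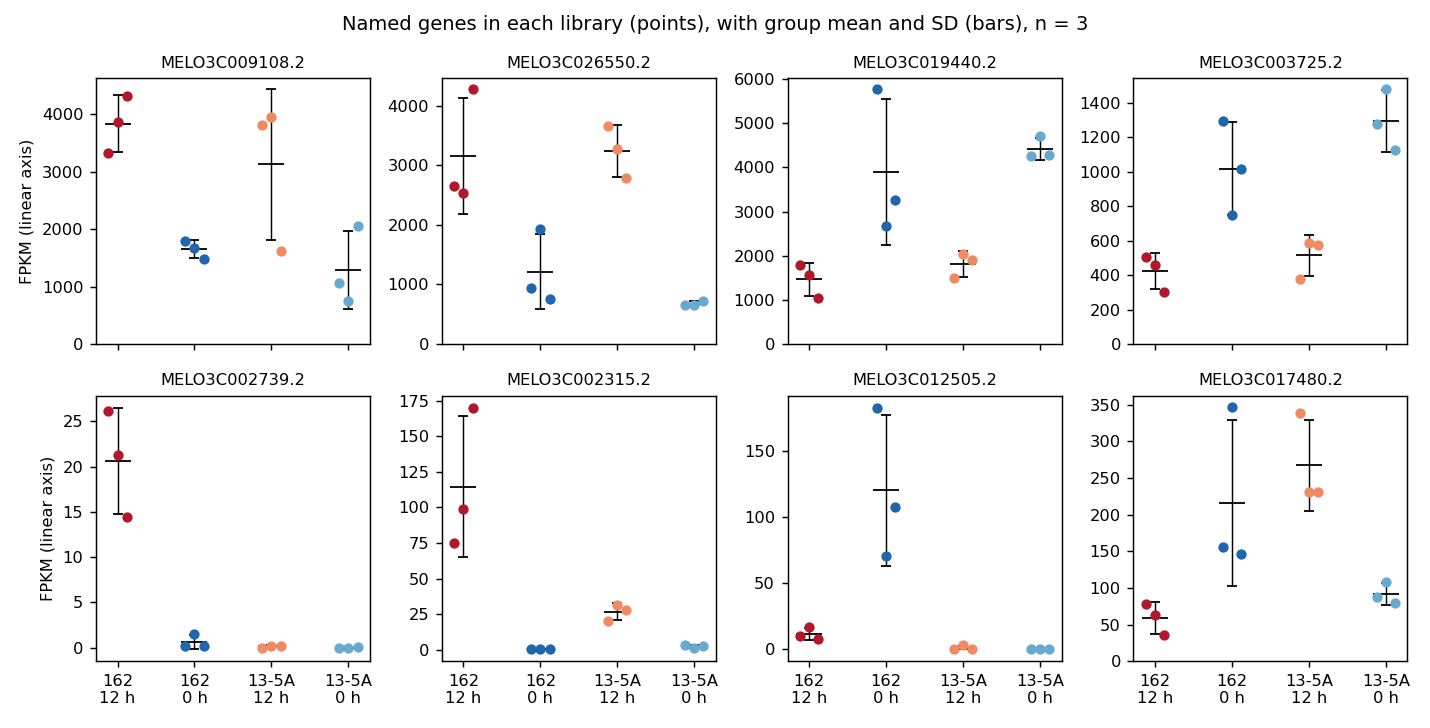
FPKM of the 8 genes named by rule in each library (points) with the group mean and SD (bars, n = 3), for 162 at 12 h and 0 h and 13-5A at 12 h and 0 h; each panel has its own linear axis. The upper row holds the largest rises and falls in mean FPKM among genes called in 162 without overlap, which were called alike in 13-5A, and the lower row the largest differences between the varieties among genes called in both 162 and the difference with a mean of at least 5 FPKM.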

How the data were processed

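The authors deposited one table of FPKM, with 21691 genes in 12 libraries. Per the labels' protocols, TRIzol served for RNA extraction and the VAHTS Universal V6 kit for the libraries, which were read as paired ends on a NovaSeq instrument. Aligner, counter, build and annotation: not given in the sources used here. Table columns were matched to samples by the sample descriptions, and 0 columns were left over.

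Whole reads, gene lengths and library totals were solved from the steps of the FPKM; 100% of the values of the tested genes came out whole within 0.001 reads. At the median length of 1649 bases, 1 FPKM is about 72 reads. These units may be single reads or pairs, which was not settled.

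Genes averaging 1 FPKM or more in the 6 libraries of 162 were tested on log2(FPKM + 1), which understates changes of low genes, with limma 3.58.1 in R 4.3.3 (intensity trend, 4 groups, all 12 libraries, 8 residual degrees of freedom) and Benjamini-Hochberg adjustment over all 15576. From this fit, 3 contrasts were used: the change in 162, the change in 13-5A and their difference. Single values per library were compared by two-sided exact permutation tests. Data were simulated for the change in 162 on 15576 genes, with 100 genes changed at each fold and noise drawn independently for each gene. There, 65% of 3-fold and 91% of 6-fold changes were recovered and 2 unchanged genes were called. For the difference the figures were 42%, 77% and 4. In the real data far more genes were called and single libraries shifted many genes together, so these rates do not carry over to them. Recovered reads of same-group 162 libraries differed by more than counting noise (chi-square 51.1 to 263 per gene), so each was kept as a sample.

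By rule, 2 genes per direction are named for the change in 162 (called, no overlap, largest change in mean FPKM) and 2 for the difference (called in both with the same sign, mean of at least 5 FPKM in 162, largest difference). The comparison, lists and rules were chosen with earlier results of these data known. Gene lists and markers were not tested for want of names. Alternatives were other pseudocounts, filters, scalings and limits, no trend, no fold minimum, only the 6 libraries of 162, a replicate block, limma voom and each library left out. Python 3.11.15 with numpy 2.4.6, pandas 2.3.3, scipy 1.17.1 and matplotlib 3.10.9 was used for the rest.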

Additional observations from a re-analysis of the deposited data

Results flagged for a closer look

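By the test of the difference itself, 490 genes changed unlike in 162 and in 13-5A over 12 h. MELO3C002739.2 and MELO3C002315.2 rose more in 162, with log2 differences between the changes of 3.63 and 3.21. MELO3C030868.2, named after its values were seen, had a difference of 2.45 (adjusted p from limma = 0.0456). This call was narrow, and the gene was not followed under the alternatives. In 13-5A it had 1.10, 7.44 and 1.09 FPKM at 12 h and 0.393, 0.571 and 0.781 FPKM at 0 h. The varieties overlapped at 12 h, where 162 had 13.1, 13.8 and 7.28 FPKM. MELO3C012505.2 and MELO3C017480.2 had differences of -3.94 and -3.33. Of these genes, MELO3C002739.2 and MELO3C012505.2 had almost no reads in 13-5A, and MELO3C017480.2 was the one called in opposite directions in the varieties.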

How the results depend on the processing

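Of 421 values under alternatives, 388 stayed within 1.5 times a count or on the same side of their threshold, 23 moved, 6 lost a call and 4 turned in sign; 272 of the 421 were for genes named because their changes were large, so the tally overstates stability. Without the fold minimum, by construction, 7781 genes were called in 162, 3121 higher and 4660 lower. With each library left out in turn, calls in 162 numbered 2877 to 3543, 1289 to 1675 higher and 1588 to 1868 lower. For the difference from 13-5A they numbered 121 to 629. The replicate numbers were not taken to pair samples, since the labels do not say that they do. Deviations of same-numbered 12 h and 0 h libraries of 162 correlated at 0.304, -0.129 and -0.019, which cannot settle whether they were paired. With the replicate block the calls were 3104 in 162 and 318 for the difference. Limma voom gave 3887 calls in 162 and 396 for the difference, and the median-ratio scaling 2974 and 403. The difference in share of FPKM between times ran from -0.754 to 0.773 percentage points for the 10 most abundant genes and from -1.40 to 0.142 for the 100 most abundant when a library was left out, and turned in sign without replicate 3 at 12 h and without replicate 1 at 0 h; the cause was not tested. Switched-on genes numbered 19 with limits of 0.2 and 1 FPKM and 1 with 0.1 and 2 FPKM, and 8 to 13 without a library. Switched-off genes numbered 10, 0 and 5 to 7. Leaving out a library can only keep or raise the counts of switched genes. The 4 lost calls in 162 were all for MELO3C009108.2, and the 2 lost calls of the difference were those under voom. The shares of the summed gain and loss under equal totals and the classes of level and length under alternatives were added after seeing the data. The fit with only the 6 libraries of 162 gave 3085 calls and cannot be made for the difference. Depth limits genes of few reads most.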
